A study of Homo sapiens with 6 samples.

Results

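The aldo-keto reductases AKR1C1, AKR1C2, AKR1C3, AKR1C4, AKR1B1, AKR1B10, AKR1A1, AKR1E2 and AKR7A2 were examined in the human breast carcinoma line HS578T. They were chosen by name, with the difference between the groups already known for AKR1C1, AKR1C2 and AKR1C3, so the values of that contrast are given for these genes as a description and without a test. All probe sets carrying one of the 9 symbols in the platform annotation were kept, which gave 7 probe sets for 7 genes among 21448 probe sets in all. AKR1B1 and AKR1A1 were not analysed here.

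Control cells carried the empty vector pcDNA 3, and EP300 cells carried pcDNA 3 with the cDNA of EP300, a lysine acetyltransferase and transcriptional co-activator. Cells of both groups had been stably transfected, selected with G418 as pools of clones, and kept in low-glucose medium with serum, insulin and G418. Each group had 3 cultures, each on its own Affymetrix array. Whether the cultures of a group derived from separate transfections is not given, so the spread measured is that between cultures. The level of EP300 itself was not analysed here, and no value therefore checks the group labels.

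Aldo-keto reductases reduce carbonyl groups with NADPH. The AKR1C enzymes act on steroids and prostaglandins and set how much active hormone reaches nuclear receptors, also in breast tissue. The AKR1B enzymes reduce sugars, retinal and reactive aldehydes. AKR1C and AKR1B10 genes are well-known targets of NRF2, the transcription factor (encoded by NFE2L2) that answers oxidative and electrophilic stress, and the AKR1C genes lie side by side on chromosome 10 as close copies of one another.

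The start-site windows of the AKR1C genes are shown because AKR1C1, AKR1C2 and AKR1C3 read higher together on the EP300 arrays. AKR1C4, of the same cluster, had overlapping groups. It lay below the lower quartile of the array on 3 of the 6 arrays, so an unchanged level cannot be read from it. AKR1C8, which lies between AKR1C3 and AKR1C4, is not among the 9 genes, and its window is not shown. The windows are RefSeq sequence of build GRCh38.p14, from 250 bases before to 50 after an annotated start. Of the 9 genes 8 had a window in the table, with 12 windows in all. The AKR1C1 window is chr10:4963165-4963464 (plus strand), that of AKR1C2 is chr10:5003808-5004107 (minus strand), those of AKR1C3 are chr10:5048531-5048830 and chr10:5094164-5094463 (plus strand), and that of AKR1C4 is chr10:5196587-5196886 (plus strand). Each is written 5′ to 3′ along the gene's strand, and capitals mark matches to CCAAT or TATAAA on either strand (ATTGG and TTTATA are their minus-strand forms).
AKR1C1: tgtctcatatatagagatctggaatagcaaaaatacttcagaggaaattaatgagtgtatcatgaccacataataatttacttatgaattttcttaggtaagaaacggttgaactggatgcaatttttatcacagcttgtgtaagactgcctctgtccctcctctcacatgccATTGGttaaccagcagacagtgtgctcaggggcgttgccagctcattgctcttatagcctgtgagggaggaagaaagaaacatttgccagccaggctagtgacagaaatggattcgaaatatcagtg
AKR1C2: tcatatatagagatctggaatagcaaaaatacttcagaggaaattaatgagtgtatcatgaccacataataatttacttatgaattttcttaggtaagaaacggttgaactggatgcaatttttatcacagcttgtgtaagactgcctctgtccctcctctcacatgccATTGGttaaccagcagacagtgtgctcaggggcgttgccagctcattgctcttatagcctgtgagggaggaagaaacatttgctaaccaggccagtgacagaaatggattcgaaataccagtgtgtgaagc
AKR1C3 first window: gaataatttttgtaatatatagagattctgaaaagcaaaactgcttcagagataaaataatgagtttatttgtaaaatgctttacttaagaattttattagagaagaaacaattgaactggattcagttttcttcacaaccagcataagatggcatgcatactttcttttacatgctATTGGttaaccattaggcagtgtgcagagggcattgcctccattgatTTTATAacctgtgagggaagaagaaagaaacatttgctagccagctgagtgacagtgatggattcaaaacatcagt
AKR1C3 second window: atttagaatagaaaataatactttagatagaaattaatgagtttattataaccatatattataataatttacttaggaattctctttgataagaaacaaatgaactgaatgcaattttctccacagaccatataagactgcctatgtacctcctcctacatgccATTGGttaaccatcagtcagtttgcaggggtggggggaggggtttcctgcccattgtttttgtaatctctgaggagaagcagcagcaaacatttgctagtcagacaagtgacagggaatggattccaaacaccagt
AKR1C4: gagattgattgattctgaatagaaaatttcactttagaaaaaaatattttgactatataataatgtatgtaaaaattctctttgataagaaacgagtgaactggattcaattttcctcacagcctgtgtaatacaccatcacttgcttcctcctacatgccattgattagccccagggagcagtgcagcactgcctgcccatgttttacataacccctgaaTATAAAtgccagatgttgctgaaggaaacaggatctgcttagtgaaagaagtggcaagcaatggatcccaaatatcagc

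The AKR1C1 and AKR1C2 windows were almost the same sequence. They shared 288 of 292 aligned bases, with 4 further bases in gaps, and held an unbroken identical run of 239 bases. With positions counted from 1 at the 5′ end of the AKR1C1 window, that run covered bases 5 to 243, all of them before the annotated start. The substitutions from AKR1C1 to AKR1C2 were C261T, G263A, T270C and T295C. Identity counted over aligned and gap bases was 97.3% for this pair. Against AKR1C1 it was 76.9% and 75.3% for the AKR1C3 windows and 65.3% for AKR1C4.

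AKR1C1, AKR1C2 and both AKR1C3 windows held ATTGG at aligned places, and AKR1C4 read ATTGA there, a G178A substitution in AKR1C1 numbering. AKR1C4 held TATAAA in its window, 29 bases before the start, and the first AKR1C3 window held it on the minus strand. Over all 35116 windows of 300 bases, CCAAT was present in 34.6% and TATAAA in 11.5%, against 8 and 2 of the 12 windows of the reductases. The AKR1B1 windows overlap and hold the same CCAAT site, the AKR1E2 windows overlap and share theirs, and the AKR1C windows are copies of one another. The 8 are therefore not separate matches to set against the 34.6%. The core of the antioxidant response element, TGACNNNGC, was present in 13.3% of all windows and in 2 of these 12, the overlapping windows of AKR7A2. The AP-1 letters TGANTCA (7.71% of all windows) and the cAMP response element TGACGTCA (1.85%) were in 0 of the 12. All 5 motifs were searched on both strands, and in these 12 windows no match of one motif overlapped a match of another. A match is a description of letters in the window, and these short windows do not cover distant elements.

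AKR1C1, AKR1C2 and AKR1C3 read higher on each EP300 array than on any control array, by 4.8-fold, 3.11-fold and 2.87-fold. AKR1C4, AKR1B10, AKR1E2 and AKR7A2 had overlapping groups. Of the 7 probe sets, 3 had the EP300 arrays above the control arrays and 0 had them below, where 6.3% and 5.91% of all probe sets did so. A difference above 1 on the log2 scale was found for 3 of the 7 and for 0.359% of all probe sets. In limma's fit over all 21448 probe sets, 0 of the 7 and 0% of the table passed a Benjamini-Hochberg adjusted p of 0.05, and 3 of the 7 and 6.52% of the table had an unadjusted p below 0.05. Nothing is read from these counts, since this contrast was known when the genes were chosen.

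**Figure D1:**
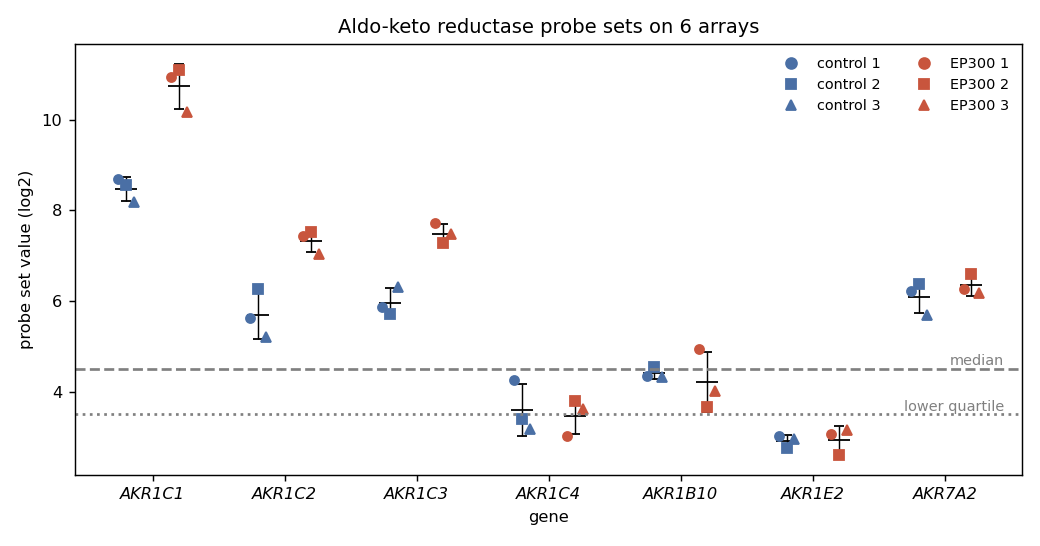
Values of the 7 aldo-keto reductase probe sets (log2) on the 3 control (blue) and 3 EP300 arrays (red), with black bars for the mean and SD of each group and lines at the highest lower quartile and highest median of the 6 arrays. AKR1C1, AKR1C2 and AKR1C3 have no overlap between groups, AKR1E2 lies below the lower quartile on all 6 arrays, and AKR1C4 on 3.

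AKR1C1 encodes an enzyme that inactivates progesterone by reducing it. Its probe set (TC1000012427.hg.1) read 8.69, 8.56 and 8.18 in control cultures 1 to 3 and 10.94, 11.11 and 10.17 in EP300 cultures 1 to 3 (log2). The lowest EP300 array, that of culture 3, still lay 1.48 above the highest control array. Means were 8.48 ± 0.26 and 10.74 ± 0.50 (SD, n = 3 each), a log2 difference of 2.26 ± 0.29 SE with a 95% interval from 1.62 to 2.9. This was the largest upward difference among the 21448 probe sets.

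AKR1C2 encodes an enzyme that inactivates dihydrotestosterone. Its probe set (TC1000012516.hg.1) read 5.623, 6.263 and 5.197 in the controls and 7.442, 7.524 and 7.035 in the EP300 cultures (log2). The groups were apart by 0.77. The difference was 1.64 ± 0.30 SE, with a 95% interval from 0.98 to 2.3. The control arrays of AKR1C2 were less alike than those of AKR1C1, with an SD of 0.54.

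AKR1C3 encodes an enzyme that makes testosterone from androstenedione and also reduces prostaglandins. Its probe set (TC1000012428.hg.1) read 5.88, 5.71 and 6.31 in the controls and 7.72, 7.28 and 7.47 in the EP300 cultures (log2), with a gap of 0.96 between the groups. The difference was 1.52 ± 0.24 SE, with a 95% interval from 0.99 to 2.06.

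Within the groups the probe sets did not follow one order. AKR1C1 and AKR1C2 were both lowest in culture 3 of the controls and in culture 3 of the EP300 group, and both were highest in EP300 culture 2. AKR1C3 was highest in control culture 3 and lowest in EP300 culture 2. The transcripts of these genes are close in sequence, and how much signal their probe sets share was not tested. In these bulk cultures, more cells with the transcripts and more RNA per cell cannot be told apart.

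AKR1C4, a mainly hepatic enzyme of bile acid and steroid metabolism, was not separated between groups. It read 4.248, 3.385 and 3.163 in the controls and 3.009, 3.796 and 3.604 in the EP300 cultures (log2). The difference was -0.13 with a 95% interval from -0.86 to 0.6. On 3 of the 6 arrays the probe set lay below the lower quartile of the array (3.468 to 3.495), where background is unknown, and on none did it lie above the median. No fold is given for it. Without control culture 1 the difference was 0.195.

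AKR1B10, a reductase of retinal and aldehydes, read 4.35, 4.54 and 4.31 in the controls and 4.94, 3.67 and 4.01 in the EP300 cultures (log2). The EP300 arrays surrounded the control arrays, with an SD of 0.66 against 0.12. The difference was -0.20 with a 95% interval from -0.90 to 0.51. Without EP300 culture 1 it was -0.56, and without EP300 culture 2 it was 0.07. Its lowest value, 3.67, lay just above the lower quartile.

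AKR1E2, a reductase of anhydrofructose encoded beside the AKR1C cluster, lay below the lower quartile on all 6 arrays, between 2.59 and 3.15. Its difference of 0.04 (95% interval from -0.48 to 0.55) is thus one between dim values. AKR7A2, a reductase of aldehydes such as succinic semialdehyde, lay above the median on all 6 arrays. It read 6.229, 6.369 and 5.687 in the controls and 6.272, 6.599 and 6.166 in the EP300 cultures (log2). The difference was 0.25, with a 95% interval from -0.31 to 0.81, and 0.05 without control culture 3.

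**Figure D2:**
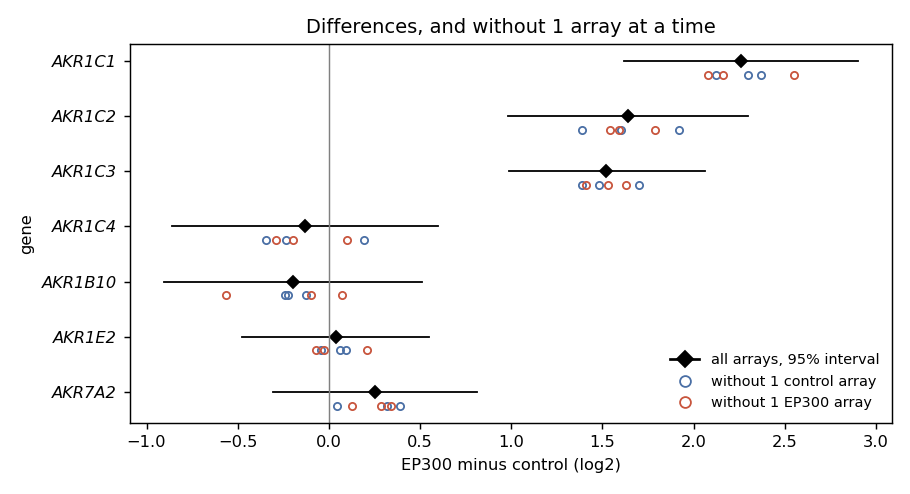
EP300 minus control (log2) for the 7 probe sets, with diamonds and lines for the value and 95% interval over all arrays and open circles for the values without 1 array. The circles of AKR1C1 lie between 2.08 and 2.55, those of AKR1C2 between 1.39 and 1.92 and those of AKR1C3 between 1.39 and 1.7.

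The other members of the superfamily were measured by 7 probe sets, of which 3 were higher and 4 lower in EP300 cultures, with a median difference of -0.15 (0.000982 over all probe sets). By limma 0 passed the adjustment over all probe sets, and 2 of the 7 had an unadjusted p below 0.05 (6.52% of all probe sets). KCNAB2, a beta subunit of voltage-gated potassium channels that shares the reductase fold, read 5.004, 5.336 and 5.054 in the controls and 4.432, 4.625 and 4.38 in the EP300 cultures, a difference of -0.65 ± 0.21 SE (limma adjusted p = 0.738). AKR1B15, a close copy of AKR1B10, differed by 0.70 ± 0.27 (limma adjusted p = 0.748). It read 2.77, 2.97 and 2.88 in the controls, below the lower quartile, and 3.99, 3.71 and 3.03 in the EP300 cultures, so no fold is given. AKR1C8, which lies between AKR1C3 and AKR1C4, differed by -0.46 ± 0.25, and AKR7A3 by -0.42 ± 0.27, with overlapping groups.

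Along chromosome 10, AKR1C1, AKR1C2 and AKR1C3 are adjacent, and none of the measured genes around the cluster had its groups apart. The 6 nearest protein-coding genes on each side of the cluster comprised AKR1E2 and 11 others, of which 9 were measured. Of these 9, 7 read higher and 2 lower, 0 had groups apart in either direction (6.3% higher and 5.91% lower over all probe sets), and 0 had an unadjusted limma p below 0.05 (6.52%). So few genes limit what these counts of 0 show. Their differences ran from -0.37 (CALML5) to 0.46 (CALML3), with a median of 0.16. KLF6, a zinc finger transcription factor and the nearest measured gene beyond AKR1E2, differed by 0.16 ± 0.26 SE, and UCN3, the nearest beyond AKR1C4, by 0.25 ± 0.22. Around the AKR1B genes on chromosome 7, the 12 neighbours measured ran from -0.30 (CYREN) to 0.57 (LRGUK), with a median of 0.013 and 1 unadjusted limma p below 0.05, that of LRGUK. The EP300 arrays lay above the control arrays for 2 of these 12 and below for 1. LRGUK read 2.62, 3.04 and 2.60 in the controls and 3.61, 3.19 and 3.17 in the EP300 cultures, mostly below the lower quartile.

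**Figure D3:**
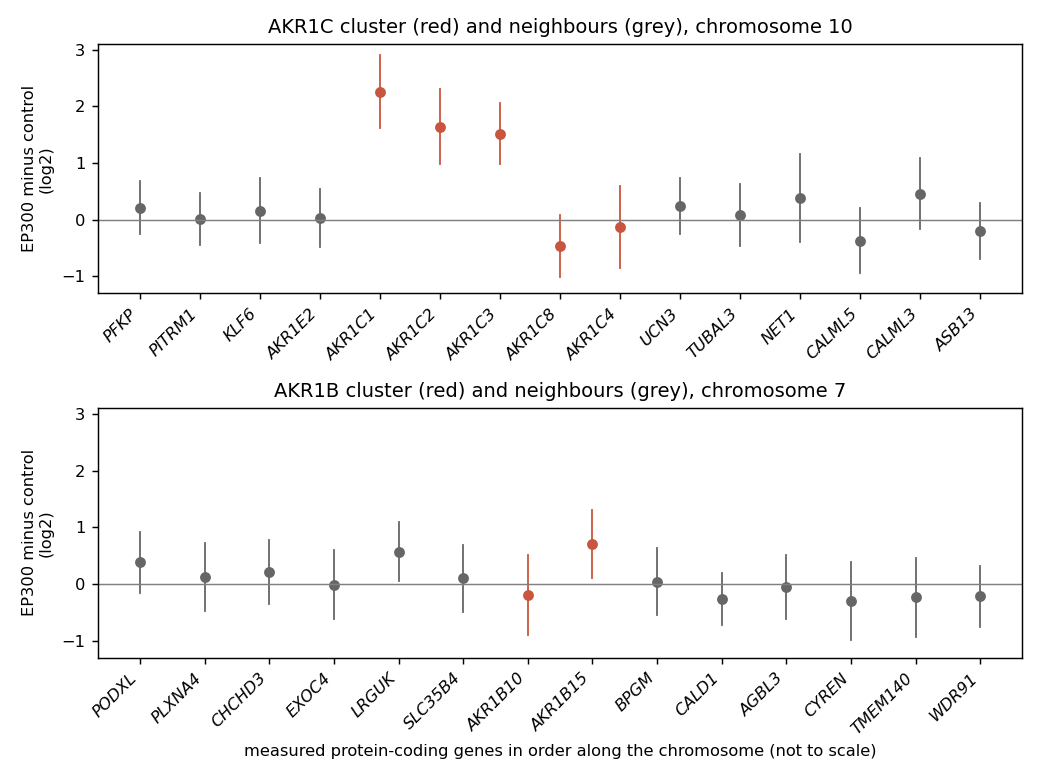
EP300 minus control (log2, with 95% interval) for measured protein-coding genes in their order along chromosomes 10 and 7, at equal steps and not to scale, with the AKR1C and AKR1B clusters in red and neighbours in grey. AKR1C1, AKR1C2 and AKR1C3 lie between 1.52 and 2.26, and the neighbours of the AKR1C cluster between -0.37 and 0.46.

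Other listed targets of NRF2 mostly read higher in EP300 cultures. The pathway and marker lists were chosen with earlier results of these data known. Their counts are thus a description, and no response of a pathway is read from them. Of 28 listed, 24 were measured, 20 were higher and 4 lower, and the median log2 difference was 0.22. The EP300 arrays lay above the control arrays for 8 of the 24 and below for 1 (6.3% and 5.91% over all probe sets). By limma 0 of the 24 passed the adjusted threshold, while 5 had an unadjusted p below 0.05, all 5 higher (6.52% of all probe sets had such a p in either direction). The mean level of the list was 8.01 to 8.04 on the control arrays and 8.25 to 8.42 on the EP300 arrays (log2). Leaving out 1 array at a time, the median stayed between 0.2 and 0.382.

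SLC7A11, the cystine importer subunit that feeds glutathione synthesis, read 9.93, 9.75 and 9.99 in the controls and 10.84, 10.69 and 10.61 in the EP300 cultures, 1.78-fold higher (0.83 ± 0.20 SE, limma adjusted p = 0.735). ME1, malic enzyme, which makes NADPH, read 8.86, 8.87 and 9.36 against 9.70, 9.82 and 9.82, 1.68-fold higher. PRDX1, a peroxiredoxin, read 11.45, 11.92 and 12.03 against 12.69, 12.37 and 12.61, 1.7-fold higher. These 3 genes, and NQO1 below, were named for having the smallest limma p of the list in this contrast. All 3 were higher on each EP300 array than on any control array (6.3% of all probe sets were). That largely follows from the choice by p.

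NQO1, the quinone reductase that is the standard NRF2 readout, read 12.92, 12.59 and 12.71 in the controls and 13.44, 13.23 and 13.68 in the EP300 cultures, 1.63-fold higher (0.71 ± 0.22 SE, limma adjusted p = 0.735). TXNRD1, thioredoxin reductase, named after its value was seen, was 1.49-fold higher. Other classical targets did not share the direction or the size. HMOX1, heme oxygenase, counted as higher above, differed by 0.000527 ± 0.224 SE. GCLC and GCLM, the subunits of the enzyme that starts glutathione synthesis, differed by -0.37 ± 0.24 and -0.26 ± 0.21. These 3 genes were also named after their values were seen.

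Regulators of NRF2 went both ways. Of 11 measured, 3 were higher and 8 lower, with a median of -0.053. The EP300 arrays lay above the control arrays for 3 of the 11 and below for 2 (6.3% and 5.91% over all probe sets). By limma 0 passed and 1 of the 11 had an unadjusted p below 0.05, a share near the 6.52% of all probe sets. That gene was BACH1, which encodes a repressor that occupies antioxidant response elements. It read 6.76, 7.01 and 7.02 in the controls and 6.13, 6.23 and 6.74 in the EP300 cultures, a difference of -0.56 ± 0.24 SE (limma adjusted p = 0.755). SQSTM1, an autophagy receptor that binds KEAP1, differed by 0.51 ± 0.23, CUL3, the ubiquitin ligase scaffold that acts with KEAP1, by 0.42 ± 0.20, and its partner RBX1 by -0.51 ± 0.26. NFE2L2 itself differed by -0.07 and KEAP1 by -0.12, both with overlapping groups, and these 2 were chosen after their values were seen.

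**Figure D4:**
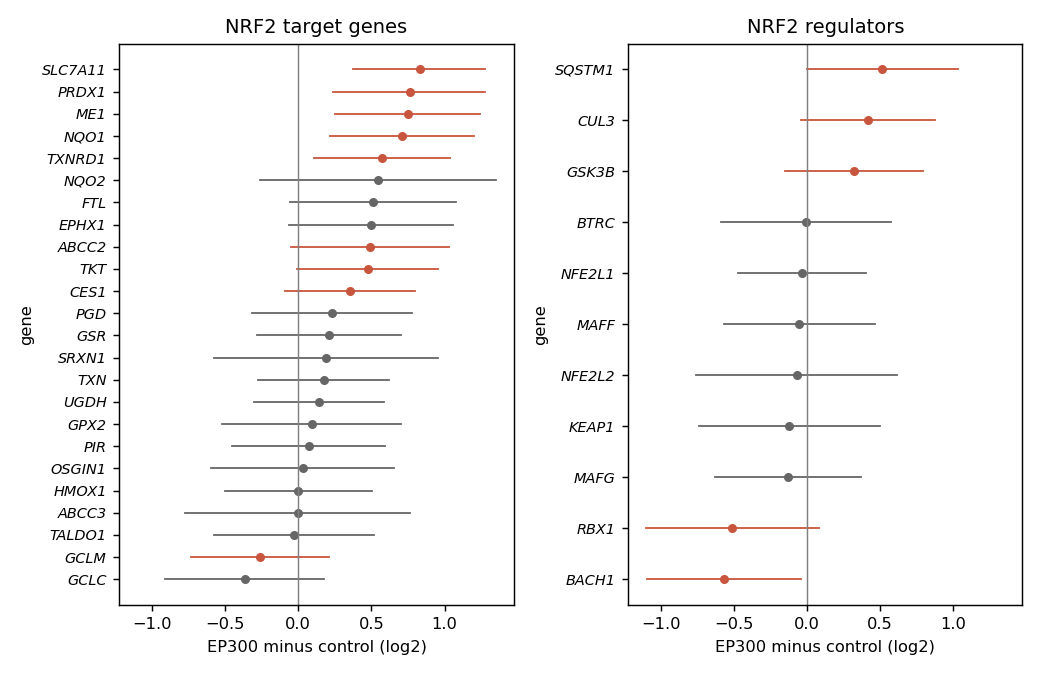
EP300 minus control (log2, with 95% interval) for 24 measured NRF2 targets (left) and 11 measured regulators (right), red where the 3 EP300 arrays lie on one side of the 3 control arrays and grey where the groups overlap. Of the targets 20 lie above 0, with SLC7A11 at the top.

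Enzymes that share carbonyl substrates with these reductases had a median of 0.052 over 22 genes, with 14 higher and 8 lower. By limma 0 passed, and 3 higher and 1 lower of the 22 had an unadjusted p below 0.05 (6.52% of all probe sets in either direction). CBR1, a carbonyl reductase of prostaglandins and quinones, read 8.17, 7.85 and 7.88 in the controls and 8.59, 8.44 and 8.75 in the EP300 cultures, 1.54-fold higher (0.63 ± 0.21 SE, limma adjusted p = 0.74). ALDH1A1, which oxidises retinal, was 2.59-fold higher (1.37 ± 0.36). It read 4.26, 3.54 and 3.18 in the controls and 5.45, 4.35 and 5.29 in the EP300 cultures, a gap of 0.086. Control culture 3 lay below the lower quartile, so this fold starts from dim values. DHRS2, a short-chain dicarbonyl reductase, was 1.57-fold higher (0.66 ± 0.23), from controls of 4.18, 4.45 and 4.47, below the array medians. PTGR2, a prostaglandin reductase, read 4.14, 4.16 and 3.81 in the controls and 3.33, 2.91 and 2.86 in the EP300 cultures. The latter lie below the lower quartile, so no fold is given for its difference of -1.0 ± 0.23.

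Steroid hormone metabolism had a median of -0.095 over 27 genes, with 11 higher and 16 lower, 0 passing by limma and 2 with an unadjusted p below 0.05, both lower. That count is near the 6.52% of all probe sets. HSD17B7, which acts in estradiol and cholesterol synthesis, read 5.35, 5.61 and 5.26 in the controls and 4.75, 4.95 and 4.84 in the EP300 cultures (-0.56 ± 0.21 SE). STS, steroid sulfatase, differed by -0.74 ± 0.31 with overlapping groups. HSD17B10 differed by 0.65 ± 0.34 and HSD17B12 by -0.42 ± 0.23. Both groups had means below the lower quartile for 9 of the 27 genes.

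Prostaglandin synthesis and breakdown had a median of 0.092 over 14 genes, with 8 higher and 6 lower. By limma 0 passed and 1, PTGDS, had an unadjusted p below 0.05, near the 6.52% of all probe sets. PTGDS and HPGD, which make and degrade prostaglandins, differed by 0.51 ± 0.22 SE and 0.50 ± 0.23 at levels near or below the lower quartile. PTGES3 differed by 0.24 ± 0.23 and PTGIS by -0.21 ± 0.21. The receptors for substrates and products of the AKR1C and AKR1B enzymes had a median of -0.041 over 16 genes, 8 higher and 8 lower. By limma 0 passed and 0 had an unadjusted p below 0.05. PGR, the progesterone receptor, read 3.61, 3.85 and 3.63 in the controls and 3.53, 3.19 and 3.23 in the EP300 cultures, near or below the lower quartile. ESR1 differed by -0.35 ± 0.30, and the prostaglandin receptor genes PTGER3 and PTGER4 by -0.53 ± 0.25 and 0.29 ± 0.27.

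Retinoid genes had a median of 0.035 over 15 genes, 9 higher and 6 lower, with 0 passing by limma and 2 of the 15 with an unadjusted p below 0.05, both higher (6.52% of all probe sets in either direction). These were the retinal dehydrogenases ALDH1A1, given above, and ALDH1A2. ALDH1A2 read 3.75, 3.66 and 4.08 in the controls and 4.97, 4.45 and 5.30 in the EP300 cultures, 2.11-fold higher (1.08 ± 0.26 SE, limma adjusted p = 0.735). Its controls lay below the array medians, so this fold too starts from dim values. RDH12 and CRABP2, a retinol dehydrogenase and a retinoic acid carrier, differed by -0.48 ± 0.26 and -0.37 ± 0.24 at levels near or below the lower quartile.

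Values were compared with those of AKR1C1 for 9251 other named genes whose mean over all 6 arrays lay above the median level. Among these the most alike were ZBTB2 (Pearson r = 0.991), DNAJC9 (0.983), RPS27L (0.978), SLF2 (0.972) and NEUROG3 (0.971). NEUROG3 lay above the array median on the 3 EP300 arrays only. These r values are a description over 6 arrays whose groups lie apart for AKR1C1, so they largely restate the contrast. ZBTB2, which encodes a zinc finger transcription factor, read 5.17, 5.24 and 5.01 in the controls and 5.99, 5.95 and 5.76 in the EP300 cultures, and was lowest in culture 3 of each group, as AKR1C1 was. Its r was 0.979 with AKR1C2 and 0.895 with AKR1C3. Most opposite to AKR1C1 were IGFL1 (-0.983), ZNF609 (-0.982) and THY1 (-0.981), the last a surface glycoprotein of fibroblasts. IGFL1 lay above the array median on the 3 control arrays only.

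The arrays had medians of 4.456 to 4.497, and Pearson r between arrays was 0.9784 to 0.9807 within groups and 0.977 to 0.9807 between groups. The first principal component (23.1% of the variance) separated the groups: scores ran from -33 to -13.5 for pcDNA 3 and from 6.9 to 31.3 for EP300. On the second (20.9%) EP300 replicates 2 and 3 lay farthest apart, at -41.3 and 35.2. Mesenchymal markers, which HS578T is known to express, lay above the array medians in both groups for 10 of 12 genes. VIM was listed at 18.6 on each array, one of the 19 probe sets without variation, so it gives no information on a difference. Epithelial markers lay above the medians for 4 of 12, leukocyte markers for 2 of 7 and endothelial markers for 2 of 7. The mean level of the leukocyte list was 4.09 to 4.36 in the controls and 4.16 to 4.28 in the EP300 cultures, and that of the endothelial list 3.69 on each control array and 3.56 to 3.91 on the EP300 arrays. The epithelial list lay at 4.49 to 4.56 and 4.41 to 4.67, with CDH1 between 2.08 and 4.02, and the leukocyte marker PTPRC lay between 3.475 and 4.333. The mesenchymal list lay at 11.6 to 11.7 and 11.5 to 11.7, so the mean levels overlapped between groups in all 4 marker lists. A list mean can hide single genes. Of the 12 mesenchymal genes 3 were higher and 9 lower (VIM, without variation, counted among the latter), with a median of -0.17. The EP300 arrays lay above the control arrays for 2 and below for 4 (6.3% and 5.91% of all probe sets). These counts were 1 and 1 for the epithelial list and 0 for the other lists. Of the 4 mesenchymal genes below, FN1 was apart by only 0.00088. SPARC read 19.91, 19.93 and 19.93 in the controls, at or near the highest value of the arrays (19.93). Both were named after their values were seen. At an unadjusted limma p below 0.05 there were 2 of 12 mesenchymal genes, 1 of 12 epithelial genes and 0 of the other lists. Over all probe sets 6.52% had such a p, and the epithelial count is near that share. In these lists 0 passed the adjustment. The genes at that p were SNAI2 (0.71 ± 0.23 SE), COL1A2 (-0.49 ± 0.22) and KRT18 (-1.11 ± 0.23), each with its groups apart. They were named after their values were seen, and their part in the AKR1C differences was not tested.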

How the data were processed

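Total RNA of 6 cultures was extracted and labelled with the Affymetrix WT PLUS kit, per the labels' protocols, and hybridised to 1 array each. The authors' deposited table gives 1 value per probe set and array. Partek 6.6 is named in the submitters' processing notes. Normalization, summarisation and build: not given in the sources used here. As for scale, the deposited values were taken as log2, a scale inferred from their range, and 19 probe sets did not vary between arrays (tolerance 0.001). The number of arrays limits the precision.

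EP300 minus control was fitted over all 21448 probe sets with lmFit and eBayes of limma 3.58.1 (R 4.3.3), with no filter or covariate, and Benjamini-Hochberg adjustment over all of them, threshold 0.05. Where a list gene had several probe sets, the brightest one stood for it. The fit was checked on simulated data with a change larger than any upward difference seen here. Recovery of smaller differences was not checked. The reductases, the 8 pathway lists and the 4 marker lists were chosen with earlier results of these data known. Named genes are all reductase probe sets, the 4 genes of each pathway list with the smallest p, and the markers VIM, CDH1 and PTPRC. Added to these are the 6 protein-coding neighbours on each side of either cluster in RefSeq order. The last are the 5 genes with the highest and the 3 with the lowest (most negative) Pearson r with AKR1C1. The text names a subset of the neighbours. Genes outside this rule are marked. No fold is given where a group mean fell under the highest lower quartile of the 6 arrays. Probe sets were named from the platform annotation, which lists 1 symbol for 17709. Start-site windows were aligned globally without end-gap cost.

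The alternatives were a replicate block, leaving out each array, median centring or quantile normalization of the arrays, a variance trend with robust estimation, keeping 1 probe set for each gene, and keeping only the brighter probe sets (above the median). A variance trend alone, robust estimation alone and the removal of constant probe sets were chosen after seeing the data. Cultures with the same number in both groups did not deviate together (correlations of deviations from the group means of -0.00153, -0.00528 and -0.00893), so the numbers were not taken as pairs.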

Additional observations from a re-analysis of the deposited data

How the results depend on the processing

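Over the 15 alternative settings the differences of AKR1C1, AKR1C2 and AKR1C3 kept their direction and moved by less than the SD between cultures pooled over both groups (the root of the mean of the groups' variances). For most settings this was fixed in advance. The variance, block and probe set settings leave a difference unchanged. With 3 arrays per group, leaving out 1 cannot move it by this SD, nor reverse it where the groups lie apart. Median centring could not either, since the array medians ran only from 4.456 to 4.497. Only quantile normalization was not bound in this way. Quantile normalization gave 2.24, 1.61 and 1.5 for the 3 genes, and median centring 2.27, 1.64 and 1.53. Without 1 array at a time AKR1C4 ran from -0.347 to 0.195, AKR1B10 from -0.564 to 0.0719 and AKR1E2 from -0.071 to 0.209, and that of AKR7A2 fell to 0.0468 without control replicate 3. No member of the 8 pathway lists passed limma's adjusted threshold in any setting.

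The number of probe sets called was 0 in the fit reported, 4 with a variance trend and robust estimation and 12 with a variance trend alone. AKR1C1 was among both, with limma adjusted p of 0.02 and 0.0125, and its adjusted p over all settings reached 0.855. AKR1C2 and AKR1C3 were not called in any setting, with lowest values of 0.107 and 0.0792. With the replicate block 0 were called and 1295 had an unadjusted p below 0.05, against 1399 without it.

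Among the probe sets above the median level the median of the other superfamily members was -0.653, since KCNAB2 alone was left. Without 1 array at a time the list medians ran from 0.2 to 0.382 for NRF2 targets, -0.201 to 0.0185 for NRF2 regulators, -0.0137 to 0.109 for carbonyl enzymes, -0.0706 to 0.0826 for prostaglandin genes, -0.15 to 0.00309 for receptors and -0.0965 to 0.0529 for retinoid genes. They ran from -0.0976 to -0.022 for steroid genes and from -0.253 to -0.0533 for the other superfamily members. NRF2 targets and these last 2 lists kept the sign of their median in each of these settings, and the other 5 did not. Dim probe sets, among them AKR1C4 and AKR1E2, limit what their differences show, since background is unknown.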
